A study of Mus musculus with 36 samples.

Results

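The histone deacetylases were followed through mouse heart development in 10 genes, Hdac1, Hdac2, Hdac3, Hdac4, Hdac5, Hdac6, Hdac7, Hdac8, Hdac9 and Hdac11. They were taken by symbol from the annotation of an expression array and are read by 17 of its 45101 probe sets, out of 20701 genes with a gene ID. A probe set is a group of short probes that together read 1 transcript. Each gene is given by its lead probe set, the one with the highest mean over all arrays, and further probe sets of a gene follow where their course was another one. The values are log2 intensities, so that a difference of 1 is a doubling, and a level on this scale cannot be compared between genes because each probe set binds with its own strength.

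Hearts of OF1 mice, an outbred strain (Oncins France 1), were profiled at 12 stages with 3 arrays each, 36 in all. The stages were every day from E10.5 (embryonic day 10.5) to E19.5, young adult at 10 weeks, and old adult, labelled 14 months, for which the methods give 10 months. At E10.5 and E11.5 all arrays were of mixed male and female material, and from E12.5 on each stage had a female, a male and a mixed array. The 3 arrays of a stage are the replicates, so that each SD below is over n = 3 arrays and covers biological and technical spread together.

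Histone deacetylases remove acetyl groups from lysines, on histones and on other proteins, and removal from histone tails is linked to compact chromatin and lower transcription. Class I enzymes (Hdac1, Hdac2, Hdac3, Hdac8) are mainly nuclear and, apart from Hdac8, work inside large corepressor complexes. Class IIa enzymes (Hdac4, Hdac5, Hdac7, Hdac9) have little catalytic activity of their own, bind MEF2 transcription factors, and leave the nucleus when kinases phosphorylate them and 14-3-3 proteins bind. In the heart, Hdac1 and Hdac2 are known for overlapping roles in the growth of the myocardium, and Hdac5 and Hdac9 for restraint of stress-induced growth. Hdac6 (class IIb) deacetylates tubulin in the cytoplasm, and Hdac11 is the sole member of class IV.

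The start sites of Hdac2, Hdac6, Hdac9 and Hdac11, whose levels differed between embryo and adult, are shown first. Windows from 250 bases before to 50 bases after a transcription start were taken from RefSeq for build GRCm38.p6. The 12 windows used covered 8 of the 10 members. No window of Hdac1 or Hdac3 was among them, so the motif counts below leave these genes out. Capitals mark the GC box GGGCGG, the CCAAT box CCAAT and the TATA box TATAAA on either strand, and all windows read 5′ to 3′ along the gene. Hdac2 (chr10:36974294-36974593, plus strand) and Hdac6 (chrX:7947840-7948139, minus strand) are shown with both listed starts of Hdac9 (chr12:34917046-34917345 and chr12:34528840-34529139, minus strand), as genes whose level was higher at every embryonic stage than in young adult hearts. Hdac11 (chr6:91156565-91156864, plus strand) is shown as the gene whose level moved the other way.
Hdac2: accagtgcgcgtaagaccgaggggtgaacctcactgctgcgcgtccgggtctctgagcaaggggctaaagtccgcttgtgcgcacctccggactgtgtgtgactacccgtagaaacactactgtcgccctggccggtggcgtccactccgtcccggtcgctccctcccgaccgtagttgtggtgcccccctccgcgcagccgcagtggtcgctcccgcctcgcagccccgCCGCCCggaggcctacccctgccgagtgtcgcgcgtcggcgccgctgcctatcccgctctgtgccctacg
Hdac6: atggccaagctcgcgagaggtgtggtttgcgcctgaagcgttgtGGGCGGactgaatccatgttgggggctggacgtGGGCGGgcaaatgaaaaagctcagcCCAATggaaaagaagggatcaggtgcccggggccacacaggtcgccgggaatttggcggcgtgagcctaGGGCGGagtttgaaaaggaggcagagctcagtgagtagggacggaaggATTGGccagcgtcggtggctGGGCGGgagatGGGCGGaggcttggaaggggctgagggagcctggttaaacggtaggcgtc
Hdac9 first start: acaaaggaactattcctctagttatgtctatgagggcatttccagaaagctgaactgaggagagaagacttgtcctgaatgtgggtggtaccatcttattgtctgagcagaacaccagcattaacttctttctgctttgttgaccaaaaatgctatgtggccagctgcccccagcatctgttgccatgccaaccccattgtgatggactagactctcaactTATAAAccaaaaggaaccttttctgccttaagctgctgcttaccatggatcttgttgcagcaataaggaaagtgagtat
Hdac9 second start: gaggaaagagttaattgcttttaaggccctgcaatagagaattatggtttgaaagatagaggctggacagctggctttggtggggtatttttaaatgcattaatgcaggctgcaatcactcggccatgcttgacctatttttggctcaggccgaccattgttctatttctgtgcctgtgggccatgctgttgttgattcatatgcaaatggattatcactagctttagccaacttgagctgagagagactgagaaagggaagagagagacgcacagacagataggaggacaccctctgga
Hdac11: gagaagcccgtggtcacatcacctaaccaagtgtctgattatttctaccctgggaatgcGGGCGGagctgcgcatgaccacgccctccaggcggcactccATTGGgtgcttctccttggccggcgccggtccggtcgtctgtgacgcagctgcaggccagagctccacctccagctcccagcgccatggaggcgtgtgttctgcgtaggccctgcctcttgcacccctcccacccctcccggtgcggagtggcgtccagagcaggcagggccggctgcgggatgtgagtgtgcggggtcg

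The Hdac2 window held 36 CpG dinucleotides and 69.7% G and C, against a median of 7 CpG and 52.7% over 32851 windows of the same length. The Hdac9 windows were at the other end, with 0 and 3 CpG and 44.0% and 45.3% G and C, and the first of them held a TATA box, found in 13.6% of all windows. The Hdac6 window held 5 GC boxes and 2 CCAAT boxes, and the Hdac11 window 1 of each. Hdac7 and Hdac9 supply more than 1 of the 12 windows each, and some windows of Hdac7 overlap, so a count of windows is not a count of genes. A GC box was present in 6 of the 12 member windows and in 35.7% of all windows. The CCAAT box was present in 5 of the 12, against 37.4%. A match to the MEF2 consensus was present in 1 member window, that of Hdac5, against 3.19% of all windows. These are matches of letters in a short window, and whether a factor binds there was not measured.

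Cardiomyocyte markers were high throughout, with 9 of 9 measured markers above a log2 mean of 5 at every stage, and none of 6 liver markers was above 5 at any stage, although the extraction text of the labels names liver. Several facts of the arrays moved with stage and are given here for all results below. The mean signal of the added hybridization controls was between 9.68 and 10.3 at E10.5, between 11.0 and 11.4 at E19.5 and between 12.0 and 12.4 in young adult hearts. The last 16 arrays, starting with the female one of E16.5, carry another prefix in their titles, which falls together with late stage. The mixed arrays of E17.5 and E18.5 stood apart from the other 2 arrays of their stages, with the highest hybridization control of the stage (12.0 and 11.6). Earlier arrays differed in this measure too. The third E10.5 array read 10.3 against 9.68 and 9.68, and the E13.5 mixed array 11.3 against 10.6 and 10.7. At E10.5 the intensities of the 10 proliferation markers summed to between 4647 and 6448, on E19.5 to between 1226 and 1671, and in young adult hearts to between 382.9 and 404.2, and the number of them above 5 was 9, 8 and 4. The 8 erythroid markers summed to 19150 to 25530 at E10.5 and 133.0 to 198.4 in young adult hearts. The 8 leukocyte markers went the other way, from 133.9 to 151.7 at E10.5 to 1614 to 1838 in young adult hearts. The Gapdh 3′ probe set exceeded the 5′ one, a sign of RNA quality, by 2.19 to 3.95 at E10.5, 4.65 to 4.79 at E13.5, 3.72 to 4.13 at E19.5 and 1.39 to 2.25 in young adult hearts. The part of the marker genes and of this difference in the results was not tested. Fits with the control level as a covariate or within arrays of 1 title form are described below. In heart tissue a lower share of the cells that use a gene and less of its RNA per cell cannot be told apart.

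**Figure D1:**
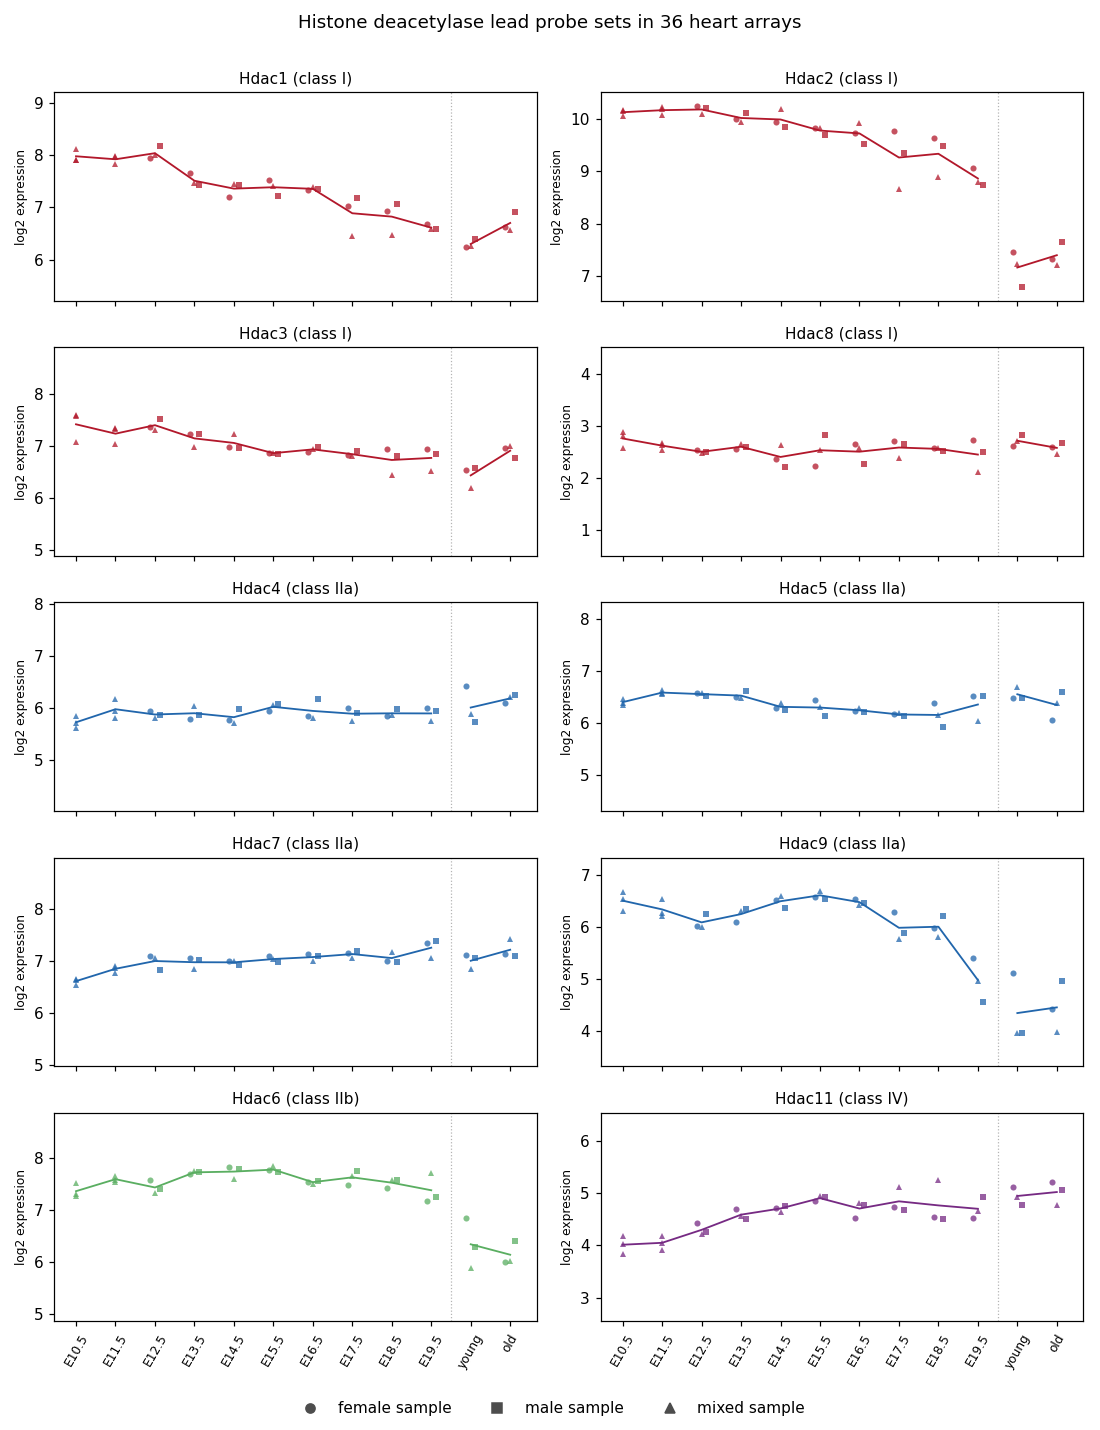
The log2 expression of the lead probe set of each of the 10 histone deacetylases (vertical axis, a span of 4 log2 units in every panel) is plotted against stage for all 36 arrays, with circles for female, squares for male and triangles for mixed arrays and lines through the stage means. Hdac2, Hdac6 and Hdac9 are clearly lower in the adult panels, Hdac1 and Hdac3 decline through the embryonic stages, Hdac11 climbs, and Hdac4, Hdac5, Hdac7 and Hdac8 stay within a narrow band.

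The widest comparison set the youngest hearts, E10.5, against the young adult heart. Hdac1, Hdac2, Hdac3, Hdac6 and Hdac9 were higher at E10.5, Hdac7 and Hdac11 were lower, and Hdac4, Hdac5 and Hdac8 did not pass the test (limma, adjusted p under 0.05 over all probe sets). So 5 of 10 members were higher and 2 lower, where 28.5% of all genes were higher and 38.6% lower. Among genes with a stage mean above 5 the share higher was 47.2% and the share lower 27.1%. The share of members higher was therefore near that of expressed genes in general, and it is the sizes and time courses of single members that are described below. The median difference of the 10 members was 0.51, against -0.21 over all genes, expressed or not. The array median of probe sets with a mean above 5 was itself higher at E10.5 (0.25 above its average) than in young adult hearts (-0.28 from it). The members' median is therefore not read as a rise against expressed genes. By the stricter rule of the study (adjusted p under 1e-05, more than 2 log2 units and a stage mean above 5), Hdac2 and Hdac9 were called, where 7.78% of all genes were. The rule admits only genes with a stage mean above 5, and of 11317 such genes 1610 were called.

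**Figure D2:**
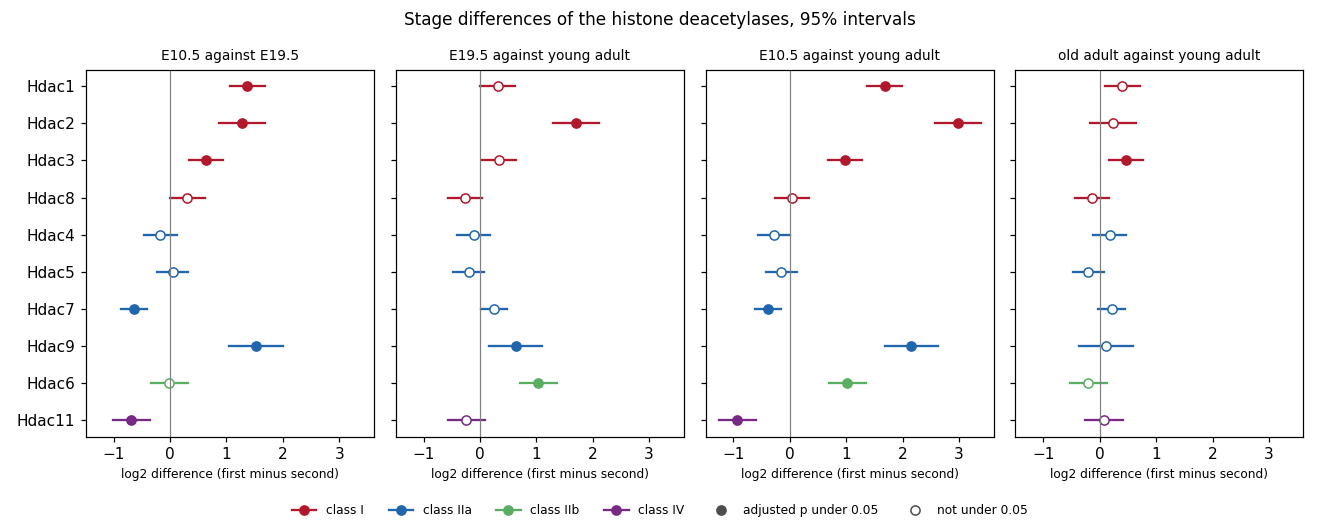
Each panel shows 1 comparison, with the log2 difference of each member on the horizontal axis as a point and its 95% confidence interval from limma as a bar, filled where the adjusted p was under 0.05. The Hdac2 difference of 2.98 and the Hdac9 difference of 2.15 between E10.5 and young adult stand furthest to the right, and Hdac11 at -0.93 furthest to the left.

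Hdac2, one of the paired catalytic subunits of the NuRD, SIN3 and CoREST corepressor complexes, changed most of all members. Its lead probe set read 10.2, 10.1 and 10.2 in the E10.5 arrays, 9.07, 8.74 and 8.79 at E19.5, 6.79, 7.22 and 7.46 in young adult and 7.65, 7.21 and 7.32 in old adult hearts. The 30 embryonic arrays ranged from 8.66 to 10.2 and the 6 adult arrays from 6.79 to 7.65, so that no embryonic array overlapped an adult one. E10.5 was above young adult by 2.98 (SE 0.20, 7.87-fold, adjusted p = 6.63e-14). The stage means were level from E10.5 to E12.5 (10.13, 10.17 and 10.19) and 9.73 at E16.5, and the E19.5 mean was 8.86. From E10.5 to E19.5 the level was lower by 1.27 (SE 0.20, adjusted p = 5.71e-06), and from E19.5 to young adult by a further 1.71 (SE 0.20, adjusted p = 4.85e-08). Each of the 10 embryonic stages was above young adult.

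The other probe sets of Hdac2 went the same way to unequal extents. Between E10.5 and young adult, 1449080_at differed by 3.48 (SE 0.28, 11.2-fold, adjusted p = 3.91e-12) and 1439704_at by 0.85 (SE 0.18, adjusted p = 0.000228). Within the embryo 1449080_at was lower at E19.5 by 2.29 (adjusted p = 8.59e-08), while 1439704_at differed by 0.22 and did not pass (adjusted p = 0.328). Where on the transcript these probe sets lie was not analysed here.

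**Figure D3:**
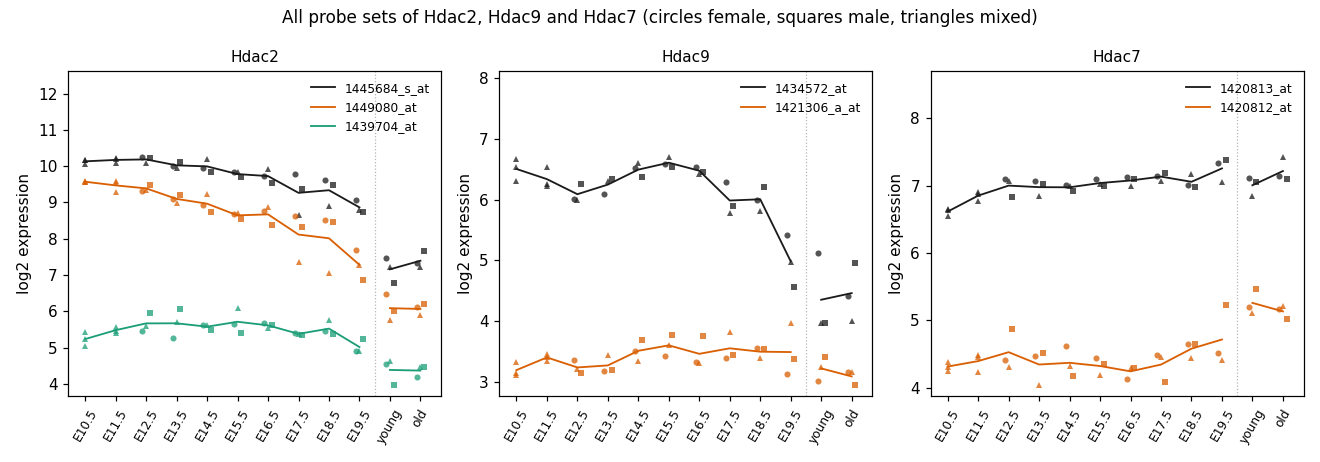
The log2 expression of every probe set of Hdac2, Hdac9 and Hdac7 (vertical axis) is plotted by stage for all arrays, with lines through the stage means. All 3 probe sets of Hdac2 are lower in adult hearts, whereas the second probe set of Hdac9 stays between 2.95 and 3.97 in every array and the second of Hdac7 is highest in young adult hearts.

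Hdac1, the close relative of Hdac2 in the same complexes, fell mostly before birth. The arrays read 8.12, 7.92 and 7.90 at E10.5, 6.68, 6.58 and 6.58 at E19.5, 6.40, 6.27 and 6.23 in young adult and 6.91, 6.57 and 6.63 in old adult hearts. The E10.5 arrays lay above all E19.5 and adult arrays. The difference between E10.5 and young adult was 1.68 (SE 0.15, 3.21-fold, adjusted p = 7.44e-11), and 1.37 of it (adjusted p = 1.91e-08) was present between E10.5 and E19.5. The stage means ran from 8.04 at E12.5 to 7.51 at E13.5, stayed near 7.36 from E14.5 to E16.5, and were 6.89 at E17.5. Hdac1 was above young adult at 9 of 10 embryonic stages, E19.5 being the exception with a difference of 0.31 (adjusted p = 0.129).

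Hdac3, the catalytic subunit of the NCoR corepressor, showed a smaller change in the same direction. It read 7.57, 7.59 and 7.08 at E10.5, 6.94, 6.85 and 6.52 at E19.5, 6.58, 6.19 and 6.54 in young adult and 6.77, 7.001 and 6.96 in old adult hearts. E10.5 exceeded young adult by 0.98 (SE 0.15, 1.97-fold, adjusted p = 1.45e-06) and E19.5 by 0.64 (adjusted p = 0.000758). Old adult hearts were above young adult ones without overlap, and this is taken up with the adult comparison below. Hdac8, the class I enzyme that acts outside these complexes, read between 2.12 and 2.89 in all 36 arrays, near the low end of the array's values, and differed by 0.04 (95% interval -0.26 to 0.35) between E10.5 and young adult. At this level a change of Hdac8 could not have been measured well.

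Among class IIa, Hdac9 was the member that changed widely. Its lead probe set read 6.66, 6.54 and 6.31 at E10.5, 5.41, 4.56 and 4.97 at E19.5, 3.96, 3.97 and 5.12 in young adult and 4.96, 3.997 and 4.42 in old adult hearts. The single young adult array at 5.12 was the female one, and it lay above 2 of the E19.5 arrays. E10.5 was above young adult by 2.15 (SE 0.23, 4.45-fold, adjusted p = 2.61e-09), and by 2.54 without the young adult female array. The course was not a steady decline. Stage means went from 6.50 at E10.5 to 6.09 at E12.5, were highest at E15.5 (6.61) and still 6.48 on the next day. The E17.5 and E18.5 means were 5.98 and 6.01, and the E19.5 mean was 4.98, so that the largest daily step of any member, 1.02, lay between the last 2 embryonic stages. From E19.5 to young adult the level was lower by 0.63 (SE 0.23, adjusted p = 0.0385), with overlapping arrays. The second probe set, 1421306_a_at, stayed near the low end of the array's values and differed by -0.03 between E10.5 and young adult (adjusted p = 0.888).

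The other class IIa genes moved little. Hdac7, known from blood vessel endothelium and thymocytes, read 6.66, 6.55 and 6.64 at E10.5, 7.34, 7.38 and 7.05 at E19.5 and 7.05, 6.85 and 7.11 in young adult hearts. The E10.5 arrays lay below both other groups. E10.5 was lower than young adult by 0.39 on the log2 scale (difference -0.39, SE 0.12, adjusted p = 0.00442) and lower than E19.5 by more (difference -0.64, adjusted p = 4.09e-05). The second probe set of Hdac7 was also lower at E10.5 than in young adult hearts (-0.94, adjusted p = 3.49e-05), but it was still low at E15.5 (-0.94, adjusted p = 5.76e-05), when the lead probe set differed from young adult by 0.03 (adjusted p = 0.845). Intensities of the 8 endothelial markers summed to between 727.2 and 1047 for E10.5, 961.4 and 1640 for E19.5, and 1784 and 2047 for young adult hearts, and whether their change and that of Hdac7 are linked was not tested.

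Hdac4 and Hdac5, which carry kinase signals to MEF2 in muscle, had the flattest lead probe sets above background. All 36 values of Hdac4 lay between 5.62 and 6.42, and E10.5 differed from young adult by -0.28 (95% interval -0.57 to 0.0066, adjusted p = 0.0815). Another probe set of Hdac4, 1447566_at, was lower at E10.5 (-0.63, adjusted p = 0.00133), at log2 values between 3.02 and 3.89. A further one, 1454693_at, differed by -0.03 at E10.5 (adjusted p = 0.87) but was below young adult at E17.5 (-0.47, adjusted p = 0.0364). Hdac5 lay between 5.93 and 6.69, with E10.5 at -0.15 from young adult (95% interval -0.42 to 0.12, adjusted p = 0.322). Its stage means were highest at E11.5 (6.58) and lowest at E18.5 (6.15), and at E17.5 and E18.5 it was below young adult.

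Hdac6, the tubulin deacetylase, stayed within 1 narrow band over the embryonic series and was lower in adult hearts. It read 7.30, 7.27 and 7.51 at E10.5, 7.17, 7.25 and 7.71 at E19.5, 6.30, 5.89 and 6.84 in young adult and 6.40, 6.03 and 5.996 in old adult hearts. The 30 embryonic arrays (7.17 to 7.84) and the 6 adult arrays (5.89 to 6.84) did not overlap. E10.5 and E19.5 differed by -0.02 (95% interval -0.35 to 0.31), and E19.5 exceeded young adult by 1.04 (SE 0.16, 2.05-fold, adjusted p = 6.97e-06). Together with Hdac2 and Hdac9, it was above young adult at each of the 10 embryonic stages.

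Hdac11 was the member with the clearest opposite course. It read 4.02, 3.84 and 4.17 at E10.5, 4.53, 4.92 and 4.66 at E19.5, 4.78, 4.93 and 5.12 in young adult and 5.07, 4.78 and 5.22 in old adult hearts. All E10.5 arrays lay below all arrays of the other 3 stages. The level was lower at E10.5 than in young adult hearts (difference -0.93, SE 0.16, 1.91-fold, adjusted p = 1.12e-05) and than at E19.5 (-0.69, adjusted p = 0.000901). It was below young adult at 3 of 10 stages, E10.5, E11.5 and E12.5, and had reached 4.90 at E15.5, from where the stage means stayed between 4.70 and 5.02. These are low levels, and the stage mean exceeded 5 only in old adult hearts (5.02). The second probe set, 1451229_at, had stage means between 2.85 and 3.88, near background. It was also lower at E10.5 than in young adult hearts (-0.75, adjusted p = 0.0042) and than at E19.5 (-0.59, adjusted p = 0.0287).

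The scaling decided how the flat members were called at E10.5. The median of probe sets with a mean above 5 stood 0.25 above its average at E10.5 and -0.28 from it in young adult hearts. With each array centred on that median, 5 members were higher and 5 lower, since Hdac4 (-0.81), Hdac5 (-0.68) and Hdac8 (-0.48) joined the lower ones, while the same 5 genes were higher. With the hybridization control level as a covariate, Hdac3 (0.45, adjusted p = 0.255), Hdac7 (-0.35, adjusted p = 0.302) and Hdac11 (-0.42, adjusted p = 0.349) no longer passed, and Hdac1, Hdac2, Hdac6 and Hdac9 did.

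To separate change inside the embryo from change after E19.5, the same path was split at that stage. Between E10.5 and E19.5, Hdac1, Hdac2, Hdac3 and Hdac9 were higher at E10.5 and Hdac7 and Hdac11 lower, which is 4 and 2 of 10 where 23.6% of all genes were higher and 26.2% lower, and 39% and 24.1% of genes with a stage mean above 5. Over 14 alternatives, Hdac3 ranged from 0.25 to 0.81 and lost the call in 3, and Hdac11 from -1.03 to -0.41 and lost it in 1. Hdac2 (0.55 to 1.37, adjusted p up to 0.0494 in limma), Hdac1, Hdac7 and Hdac9 kept theirs in all 14. Between E19.5 and young adult, Hdac2, Hdac6 and Hdac9 were higher at E19.5 and no member was lower, where 17% of all genes were higher and 14.7% lower, and 28.9% and 17.3% of genes with a stage mean above 5. At an unadjusted p under 0.05 in limma, 6 members were higher at E19.5, with Hdac1, Hdac3 and Hdac7 added to those called. The share of all genes at this threshold was not counted, so the number is not read against genes in general. The call of Hdac9 rested on few arrays, since leaving out 1 array in turn gave differences between 0.42 and 1.02 and ended the call in 4 of 6 fits (adjusted p up to 0.247), as did median centring (0.45, adjusted p = 0.0934), the control level as a covariate (0.25, adjusted p = 0.528), array weights (0.50, adjusted p = 0.143) and the fit on the 6 arrays alone (adjusted p = 0.193). These comparisons share the E19.5 arrays, and the first also shares the E10.5 arrays with the comparison above.

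Over the 30 embryonic arrays the change per day was fitted as a straight line. Hdac1 fell by 0.16 per day (SE 0.013, adjusted p = 7.99e-12), Hdac2 by 0.14 (SE 0.016, adjusted p = 1.06e-08), Hdac3 by 0.078 (SE 0.011, adjusted p = 3.59e-07), Hdac9 by 0.095 (SE 0.024, adjusted p = 0.00116) and Hdac5 by 0.038 (SE 0.010, adjusted p = 0.00210). Hdac7 rose by 0.050 per day (SE 0.0086, adjusted p = 9.78e-06) and Hdac11 by 0.088 (SE 0.015, adjusted p = 9.46e-06). So 2 of 10 members rose and 5 fell, where 43.9% of all genes rose and 27.3% fell. Among genes with a stage mean above 5, which 9 of the 10 members are, 29.5% rose and 44.8% fell, so that the members' counts were near those of expressed genes. Hdac4, Hdac6 and Hdac8 had slopes of 0.0084, 0.00080 and -0.018 per day and did not pass. Other probe sets did not always follow the lead. For Hdac4, 1454693_at fell (-0.058, adjusted p = 0.000409) and 1447566_at rose (0.043, adjusted p = 0.000902). The second probe set rose for Hdac9 (0.034, adjusted p = 0.0206), unlike its lead, and for Hdac11 (0.057, adjusted p = 0.000322). For Hdac2, 1449080_at fell (-0.23, adjusted p = 2.11e-10). Hdac2 1439704_at (-0.019) and the second of Hdac7 (0.022) did not pass.

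Some of these slopes depended on the setting or on the days covered. With the control level as a covariate, Hdac5 (adjusted p = 0.323) and Hdac11 (adjusted p = 0.167) no longer passed, and with each array centred on the median of expressed probe sets Hdac5 did not (adjusted p = 0.901). Without the E10.5 and E11.5 arrays Hdac11 did not pass, and with all probe sets averaged Hdac9 did not (-0.031 per day, adjusted p = 0.0661). Within the 20 embryonic arrays without the title prefix, up to E16.5, the slopes of Hdac1, Hdac2 and Hdac3 were negative and passed, but that of Hdac9 was 0.029 per day (adjusted p = 0.287), and within the 10 later arrays it was -0.48 (adjusted p = 0.0613). In those 10 arrays no slope passed, with -0.19 for Hdac1 (adjusted p = 0.372), -0.23 for Hdac2 (adjusted p = 0.405), -0.042 for Hdac3 (adjusted p = 0.905) and 0.042 for Hdac7 (adjusted p = 0.890). Without the E17.5 and E18.5 mixed arrays, a choice made after seeing the data, the same 2 and 5 counts were found, and the slope of Hdac2 was -0.12. Hdac1 and Hdac2 read 6.45 and 8.66 in the E17.5 mixed array, against 7.03 and 9.77 in the female and 7.19 and 9.36 in the male array of that day. As a description over the 30 embryonic arrays, deviations from the stage mean correlated with those of the hybridization control at r = -0.75 for Hdac2, -0.62 for Hdac1, -0.60 for Hdac3, 0.56 for Hdac6 and 0.53 for Hdac11, and at -0.48 to 0.23 for the others. With those of the mean of the proliferation markers they correlated at r = 0.66 for Hdac2, 0.65 for Hdac1 and Hdac3, 0.52 for Hdac5 and 0.41 for Hdac9. For Hdac6 and Hdac11 r was -0.60 and -0.51, and for the others -0.16 to 0.30. With those of the Gapdh difference r ranged from -0.34 for Hdac3 to 0.60 for Hdac4, with 0.37 for Hdac2. These arrays share stage, platform and normalization.

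The classes were then set side by side by averaging, in each array, the difference of each member from its young adult mean. At E10.5, class I (the mean of 4 genes) stood at 1.42 ± 0.10 (SD), and by E19.5 it stood at 0.52 ± 0.18. Class II and IV (the mean of 6 genes) started at 0.24 ± 0.039, was 0.57 ± 0.042 on E15.5, and ended the embryonic series at 0.23 ± 0.065. The gap between both means was 1.18 ± 0.11 on E10.5, 0.58 ± 0.16 on E14.5 and 0.30 ± 0.11 on E19.5. Class I therefore stood highest at the start and drew towards the others, while class II and IV was highest in mid-gestation. At E10.5, 3 of 4 class I genes were higher than in young adult hearts and none was lower, and of the 6 other genes 2 were higher and 2 lower, where the shares over all genes were 28.5% higher and 38.6% lower, and over expressed genes 47.2% and 27.1%. Both means join genes that moved apart, class I from Hdac2 at 2.98 to Hdac8 at 0.04, whose level was too low to measure a change well, and class II and IV from Hdac9 at 2.15 to Hdac11 at -0.93. No test was made on these means.

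**Figure D4:**
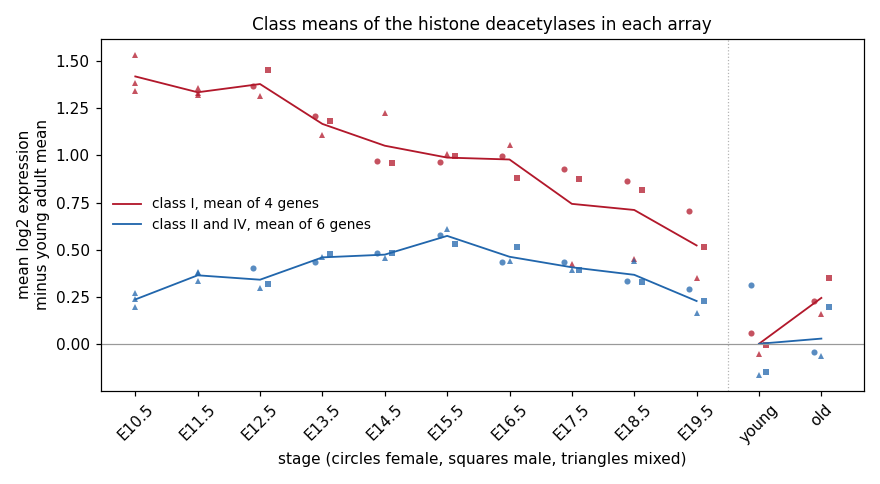
The mean of class I (4 genes, red) and of class II and IV (6 genes, blue), each gene taken as its log2 difference from its young adult mean, is plotted for every array by stage, with lines through the stage means. The red line starts at 1.42 and ends the embryonic series with 0.52, the blue one peaks at 0.57 on E15.5, and the 2 low red triangles of E17.5 and E18.5 are the mixed arrays that stood apart.

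Close relatives were compared within arrays, so that whatever scales a whole array cancels. The 6 arrays of E10.5 and E11.5 were set against the 6 adult arrays in 7 pairs, with the exact two-sided permutation test over 924 assignments (smallest possible p 0.00216) and adjustment over the 7 pairs. The early level exceeded the adult one by 2.88 for Hdac2 and 1.45 for Hdac1, a pair difference of -1.43 (exact p = 0.00216, adjusted p = 0.00378). Against Hdac9, which exceeded it by 2.02, the pair difference was -2.26 for Hdac4, -1.97 for Hdac5 and -2.39 for Hdac7, with no overlap in any of these pairs and the same exact p. Averaged over all probe sets of each gene, these were -1.32, -1.04 and -1.69, and still passed. Hdac5 and Hdac7 differed by 0.42 (exact p = 0.0130, adjusted p = 0.0182). Hdac4 did not pass against Hdac5 (-0.29, exact p = 0.113) or Hdac7 (0.13, exact p = 0.232), although the latter did with all probe sets averaged (0.37, exact p = 0.00216).

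The difference of Hdac1 and Hdac2 did not appear in the same direction inside the embryo. Against E18.5 and E19.5 in place of the adult stages, Hdac1 and Hdac2 changed by 1.23 and 1.05, and the pair difference was 0.18 in the opposite direction (exact p = 0.0519, adjusted p = 0.0606). Hdac9 was still apart from Hdac7 there (-1.35, exact p = 0.00216) and from Hdac4 (-0.97, exact p = 0.00649), but not from Hdac5 (-0.69, exact p = 0.0649).

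**Figure D5:**
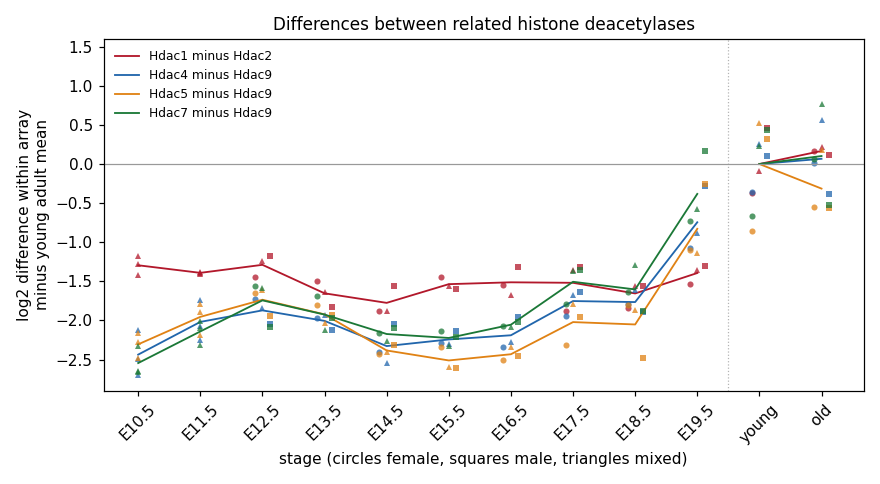
The within-array log2 difference of 4 pairs of related members, taken relative to its young adult mean (vertical axis), is plotted by stage for all arrays with lines through the stage means. The difference of Hdac1 and Hdac2 stays between -1.8 and -1.2 in the stage means of all embryonic stages, where young adult hearts stand at 0 by construction. The 3 pairs with Hdac9 climb from E16.5 on.

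Old and young adult hearts were compared to see whether the members change with adult age. Hdac3 alone was called, higher in old hearts by 0.47 (SE 0.15, 1.39-fold, adjusted p = 0.0481), and no member was lower, where 4.46% of all genes were higher and 3.13% lower. Of genes with a stage mean above 5, 7.33% were higher and 3.2% lower, so that 1 of 10 members was near that share. The Hdac3 arrays did not overlap, but the call was lost in 10 of 14 alternatives, including 5 of the 6 fits without 1 array (adjusted p up to 0.214) and the fit on the 6 adult arrays alone (adjusted p = 0.291). Hdac1 was also higher in every old array (0.40, adjusted p = 0.103). At an unadjusted p under 0.05 in limma, these 2 members, Hdac1 and Hdac3, differed, and the share of all genes at that threshold was not counted. For Hdac2, Hdac6 and Hdac9, which were higher at every embryonic stage than in young adult hearts, the differences were 0.24 (95% interval -0.17 to 0.64), -0.20 (-0.53 to 0.13) and 0.11 (-0.36 to 0.58), and the direction of each turned under some alternative.

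Male and female arrays were compared as 9 pairs, 1 for each stage that followed E12.5, with the stage blocked. None of the 10 members was called in limma, where 0.0242% of all genes were higher and 0.0193% lower in males, and no lead probe set had an unadjusted p under 0.05, although the Hdac2 probe set 1449080_at did (-0.24, unadjusted p = 0.0246 and adjusted p = 0.595 in limma). The largest differences were those of Hdac9 (-0.18, 95% interval -0.48 to 0.12, male lower in 6 of 9 pairs) and Hdac2 (-0.17, 95% interval -0.37 to 0.024, male lower in 7 of 9 pairs). Hdac6 and Hdac8 lie on the X chromosome and differed by 0.038 (95% interval -0.15 to 0.23) and 0.0024 (-0.19 to 0.20). The E15.5 array labelled male held both Xist (7.34) and the Y-linked Ddx3y (6.59), and at E12.5 the arrays labelled female and male both did. Without the E15.5 pair, and with the E12.5 pair added, no member was called either.

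The partners of class I enzymes were read from lists of complex subunits. At E10.5 against young adult, 28.5% of all genes were higher and 38.6% lower, and of expressed genes 47.2% and 27.1%. Of 11 NuRD subunits besides the deacetylases, 7 were higher at E10.5 than in young adult hearts and none was lower. Their median difference was 0.84, against -0.21 over all genes, expressed or not. The highest were the histone chaperone Rbbp4 (1.99) and Mta1 (1.67), and the smallest differences that passed were those of Mbd2 (0.53), which binds methylated DNA, and Mbd3 (0.84). Of 13 SIN3 subunits, 7 were higher and 1 lower (median 0.58), led by Sap30 (2.86) and Brms1l (1.28), with Suds3 at 0.58 and Arid4a lower at -1.76. The 7 of 13 higher were near the share of expressed genes. Of 10 CoREST subunits, 8 were higher and 1 lower (median 1.82). Rcor1, the scaffold of that complex, differed by 3.06 and Zmym2 by 2.36, with Zmym3 at 0.66 and Rcor2 lower at -0.41. Of 5 NCoR subunits, the complex of Hdac3, Tbl1x alone passed (1.83), and the scaffold Ncor1 was at -0.20.

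Split at E19.5, the lists gave these counts. Of the 10 CoREST subunits 5 were higher at E10.5 than at E19.5 and 8 higher at E19.5 than in young adult hearts, and of the 11 NuRD subunits 7 and 4, where 39% and 28.9% of expressed genes were. Over the embryonic days, 7 of 11 NuRD and 10 of 13 SIN3 subunits fell and 0 and 1 rose, where 44.8% of expressed genes fell and 29.5% rose. Of the 10 CoREST subunits 5 fell and 2 rose, and of the 5 NCoR subunits 2 fell and 2 rose, near those shares.

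Around class IIa enzymes the lists were mixed. At E10.5, 47.2% of expressed genes were higher than in young adult hearts and 27.1% lower. The counts of higher genes in both lists were near that share. Of 11 MEF2 factors and 14-3-3 proteins, 6 were higher and 2 lower at E10.5 (median 0.80), and all 6 were 14-3-3 genes, led by Ywhae (2.13) and Ywhag (2.06). Those lower were Mef2b (-0.95) and the 14-3-3 gene Sfn (-0.93), both below a log2 level of 5. Mef2a, Mef2c and Mef2d, the family members well above background, differed by 0.31, 0.33 and -0.06 and did not pass. Of 14 kinases that phosphorylate class IIa enzymes, 7 were higher and 5 lower (median 0.41). Camk2g (1.93) and the salt-inducible kinase Sik1 (1.57) were highest, and Camk1d (-1.98) and protein kinase D2, Prkd2 (-1.95), were lowest.

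Other enzymes and readers of acetyl marks were counted in the same way, beside the 47.2% of expressed genes that were higher at E10.5 and the 27.1% that were lower. Of the 7 sirtuins, the NAD-dependent class III deacetylases, Sirt1 was higher at E10.5 (2.48) and Sirt2 lower (-0.42), with a list median of 0.015. Of 12 acetyltransferases, which add the mark, 7 were higher and 1 lower (median 0.52), led by Hat1 (1.95) and Ncoa2 (1.77), with Kat2a at 0.50 and Ncoa3 lower at -0.83. Of the 4 BET family readers, Brd3 was higher (1.88) and Brd2 lower (-0.87), with a list median of -0.26.

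Genes whose stage means followed a member closely were ranked over the 12 stages among 11308 other expressed genes. For Hdac2 these included Dck, a kinase of nucleoside salvage, Wdr6, the histone methyltransferase Nsd2 and the cell cycle regulator Cks1b, with r from 0.996 to 0.997. For Hdac11 they included the transcription factor Hlf (r = 0.974), 2900026A02Rik, Os9 and Tnfaip8l1, down to r = 0.962. These are among the best of many correlations over the same arrays and are given as a description. Between members, the stage means of Hdac2 followed those of Hdac9 (r = 0.940) and Hdac6 (0.902) more closely than those of Hdac1 (0.850), and Hdac1 followed Hdac3 (0.934).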

How the data were processed

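RNA of 36 heart samples (12 stages, 3 arrays each) was hybridized by the authors to a 1-colour 3′ expression array. The deposited values are log2 intensities made by the authors with robust multi-array average (RMA), which subtracts background, quantile-normalizes all arrays and summarizes the probes of a probe set. The processing notes name Affymetrix Expression Console and Partek 6.6. RMA gives arrays 1 distribution, so that a shift of most genes is partly removed.

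The values were used as deposited. Stage means were compared in R 4.3.3 with limma 3.58.1 (12 stage means, 45101 probe sets, prior degrees of freedom 6.96, Benjamini-Hochberg adjustment within each comparison). Each gene was read from the probe set with the highest mean. The trend used 30 embryonic arrays, and sexes were compared over 9 pairs with stage as a block. Symbols were restored through gene IDs, of which 18342 were found in RefSeq (GRCm38.p6). Named were all members, the 2 highest and 2 lowest passing genes of each list, and genes among the 5 most like Hdac2 and Hdac11, some of which are not reported here; Ncor1, Mef2a, Mef2c and Mef2d were named after their values were seen. The members, lists and tests were chosen with earlier results of these data known. The fits were tested on simulated data. Alternatives concerned scaling, filters, covariates, weights, probe set choice and left-out arrays. Depth does not apply to arrays, and their number limits the precision.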

Additional observations from a re-analysis of the deposited data

How the results depend on the processing

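Among values of single members and pairs under other settings, 573 kept their direction and side of the threshold, 37 lost and 27 gained the call, and 42 turned, 36 of them with neither value called. Members lower at E10.5 against young adult numbered 4 with quantile renormalization, 5 with median centring, 0 with the hybridization control as a covariate and 1 with a limit of 0.5 on the log2 difference, in place of 2. Members lower at E10.5 against E19.5 numbered 1 with that covariate. Members lower at E19.5 against young adult numbered 1 with renormalization and 2 with centring, in place of 0. The single member higher in old adult hearts became 0 with renormalization, centring, the covariate, array weights, the 6 arrays alone or the limit of 0.5, and 0 to 1 when single arrays were left out. Members rising over the embryonic days numbered 4 with renormalization or centring, 1 with the covariate, the limit of 0.5 or without E10.5 and E11.5, and 0 within the 10 arrays with the title prefix, where 0 fell. Where a value was called, directions turned for Hdac8 at E10.5 with centring (-0.48), for the slopes of Hdac6 with the covariate (-0.044), Hdac9 without the prefix (0.029), Hdac5 (0.058) and Hdac11 (-0.00033) with the prefix, and for the pair of Hdac1 and Hdac2 against late embryos (0.18). The uncalled values that turned were these. At E10.5 against young adult, Hdac8 was -0.24 with the covariate. At E10.5 against E19.5, Hdac5 was -0.29 with renormalization, -0.30 with centring, -0.15 with the covariate and -0.054 with array weights, Hdac8 was -0.034 with centring, and Hdac6 was 0.017 with the sex block, 0.19 with the covariate and 0.028 with array weights. At E19.5 against young adult, Hdac1 was -0.0083 with the covariate and Hdac7 -0.15 with all probe sets averaged. In old against young adult hearts, Hdac9 was -0.035 with centring, -0.20 with the covariate and -0.012 with all probe sets averaged, Hdac11 was -0.068 with centring, and Hdac2 was -0.22 with the covariate. The slope of Hdac8 was 0.018 with centring, that of Hdac4 -0.0052 with the covariate and -0.0022 with all probe sets averaged, and that of Hdac6 -0.00053 with the sex block, -0.084 with the prefix, -0.023 without E10.5 and E11.5 and -0.00022 without the E17.5 and E18.5 mixed arrays. Leaving out single arrays gave ranges across 0 for Hdac8 at E10.5 against young adult (-0.022 to 0.14), for Hdac5 (-0.11 to 0.13) and Hdac6 (-0.12 to 0.15) at E10.5 against E19.5, for Hdac4 at E19.5 against young adult (-0.25 to 0.094), and in old against young adult hearts for Hdac6 (-0.43 to 0.048), Hdac9 (-0.14 to 0.49) and Hdac11 (-0.022 to 0.20). The causes were not tested.

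With the sex label as a replicate block, 5 members were higher and 2 lower at E10.5 against young adult, as without it, and Hdac2 differed by 3.07; no other count of members moved. The numbers of the E10.5 and E11.5 arrays did not pair them (r of deviations 0.14, -0.21 and 0.12), nor did the sex labels of E19.5 and young adult (0.20, 0.0083 and 0.096). No depth applies to arrays. Hdac8 and the second probe sets of Hdac9 and Hdac11 lay near background, where small changes are hard to measure, although the embryonic slopes of both second probe sets were called.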
